A study of Rattus norvegicus with 24 samples.

Results

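The genes described here are 36 listed chaperones and folding enzymes of the endoplasmic reticulum (ER), subunits of its degradation machinery, sensors of the unfolded protein response and subunits of its protein channel. They were chosen by gene symbol, with earlier results of these data known. The count tables listed 34 of the 36 among 17055 genes. Derl2 and Edem1 had no entry under these symbols and were not analysed here. All 34 passed the filter on low counts and were among the 9994 genes tested.

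RNA was measured in PC12, a cell line that arose from chromaffin cells of a rat adrenal tumour (pheochromocytoma). A stable line with the empty pcDNA3 plasmid is called vector here. A second stable line made human α1ACT, a transcription factor that is translated from the messenger of the calcium channel gene CACNA1A and forms the C-terminal end of its product. Both lines were grown in the same medium with horse and fetal bovine serum at passages 18 to 20. For each line the labels give 4 times, 6 h and 24 h and then 3 d and 10 d, each in triplicate (3 libraries), which gave 8 groups and 24 libraries. The labels do not say what starts the clock for these times, and they give no treatment. Because vector and α1ACT are 1 stable line each, effects of α1ACT and of line derivation cannot be told apart, and since no label places the 3 libraries of a group in separate cultures, the p-values measure the spread among these libraries, which may be technical.

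Proteins destined for the cell surface, for secretion or for dense-core vesicles enter the ER through the Sec61 channel and fold there with the help of chaperones that bind exposed hydrophobic stretches, of oxidoreductases that set disulfide bonds and of lectins that hold glycoproteins. Proteins that fail to fold are recognised, moved back to the cytosol and degraded, a route called ER-associated degradation (ERAD). When folding demand exceeds capacity, the membrane sensors IRE1, ATF6 and PERK start the unfolded protein response, which raises chaperone and ERAD transcripts through ATF6 and spliced XBP1, and through PERK the amino acid arm of ATF4. Chromaffin cells secrete large amounts of granule protein, so this machinery is abundant in them.

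The sample labels and the names of the deposited files did not match for 18 of the 24 libraries, 12 of them with another line as well. In the sample titles the prefix P goes with the vector and Q11 with α1ACT. Files named P 6H, P 24H, P 3D and P 10D were deposited with the samples labelled vector 6 h, α1ACT 6 h, vector 24 h and α1ACT 24 h. Files named Q11 6H, Q11 24H, Q11 3D and Q11 10D went with vector 3 d, α1ACT 3 d, vector 10 d and α1ACT 10 d. Groups are those of the labels throughout, and what the same libraries are by the file names is given beside them. By the file names, each labelled difference between lines is a difference between times within a line, and each labelled difference of 3 d against 6 h or of 10 d against 24 h is a difference between lines. At an adjusted p under 0.05 in edgeR's joint test, the line difference varied with time in 57.7% of all tested genes by the labels. By the file names it did so in 0.0400%, which is 4 genes. That count depended on the settings. It was 112 with no filter, 127 by DESeq2, 371 without all libraries numbered 2, and 0 without all numbered 1 or all numbered 3. By the labels the count ran from 4402 to 5977 under the alternatives. Whether the labels or the file names are right was not tested here.

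Counts on genes were 8679560 to 14486248 per library. Rat Cacna1a read 10.1 to 20.9 CPM (counts per 1000000 counts on tested genes, with edgeR's TMM scaling) and does not check the human transgene. Of 8 chromaffin markers 7 were listed and all 7 were detected, with a summed level of 18554 to 22157 CPM in the vector libraries and 19746 to 28546 CPM in the α1ACT libraries. The α1ACT libraries of 24 h (24544 to 28546 CPM) and 10 d (26852 to 28510 CPM) lay above the vector libraries of those times (20021 to 21328 CPM and 18554 to 19799 CPM). The 5 fibroblast markers summed to at most 0.587 CPM, with Col1a2 and Lum at 0, and the 5 immune markers to at most 3.7 CPM, with Ptprc and Aif1 at 0. Epithelial markers, led by Krt8 and Epcam, summed to 477 to 498 CPM in vector 24 h and 10 d, 652 to 734 CPM in α1ACT 24 h and 10 d, 920 to 1161 CPM in α1ACT 6 h and 3 d and 1256 to 1798 CPM in vector 6 h and 3 d. Of these markers Cdh1 read at most 2.75 CPM and Krt19 at most 0.273 CPM in any library. The mean share of counts assigned to no gene was 48.7% in vector 6 h and 49.6% in α1ACT 6 h, 50.4% and 51.6% at 24 h, 48.8% and 49.9% at 3 d, and 51.0% and 52.5% at 10 d. The part of these shifts in the results that follow was not tested.

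Promoter sequences show what several of these genes share apart from function. RefSeq windows of assembly GRCr8, from 250 bases before to 50 after the annotated start, were found by symbol for 28 of the 36 genes. They were searched on both strands for the ER stress response element, ERSE, which reads CCAAT, any 9 bases, CCACG, for its second form ERSE-II, which reads ATTGG, any 1 base, CCACG, and for the core TGACGTGG bound by XBP1 and ATF6. ERSE or ERSE-II was found in 11 of the 28 windows (39.3%), against 39 of 33469 windows of all genes (0.117%) and 26 of 7793 windows of tested genes (0.334%). ERSE is known from genes of this kind, so the share is a description of the list. Stretches of 6 of the windows are printed here with the matched element in capitals, because they show the element in both orientations and both forms.
Hspa5, chr3:38452953-38453011, strand +: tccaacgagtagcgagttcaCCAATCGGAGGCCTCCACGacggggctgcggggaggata
Dnajc3, chr15:102432514-102432572, strand +: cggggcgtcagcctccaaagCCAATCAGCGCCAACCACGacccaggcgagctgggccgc
Xbp1, chr14:84604538-84604596, strand +: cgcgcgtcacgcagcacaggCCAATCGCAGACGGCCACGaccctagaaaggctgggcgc
Calr, chr19:40213117-40213173, strand +: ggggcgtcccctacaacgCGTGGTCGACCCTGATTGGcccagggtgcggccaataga
Creld2, chr7:121789219-121789277, strand +: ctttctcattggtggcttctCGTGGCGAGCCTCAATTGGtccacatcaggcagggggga
Herpud1, chr19:10614801-10614851, strand -: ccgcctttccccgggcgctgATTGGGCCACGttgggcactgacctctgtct

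In Hspa5, Dnajc3 and Xbp1 the full ERSE lies on the strand of the gene, in Calr and Creld2 on the opposite strand, and Herpud1 holds the second form. Canx and Derl3 held 1 ERSE each, Hsp90b1 held 2, Dnajb11 held an ERSE-II that reaches the start, and Hyou1 held 2 ERSE-II on the opposite strand, the far one overlapping the only TGACGTGG match among the genes listed. That core was in 0.595% of all windows. Windows of Sel1l, Syvn1, Edem2, Edem3, Dnajb9, Sdf2l1, Sil1, P4hb, Pdia4, Eif2ak3, Sec61b, Sec61g, Ssr1, Ssr2 and Ssr3, and those of the unlisted Derl2 and Edem1, held neither form in these letters. Manf, Pdia3, Pdia6, Derl1, Os9, Atf6, Ern1 and Sec61a1 were not matched by symbol.

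**Figure D1:**
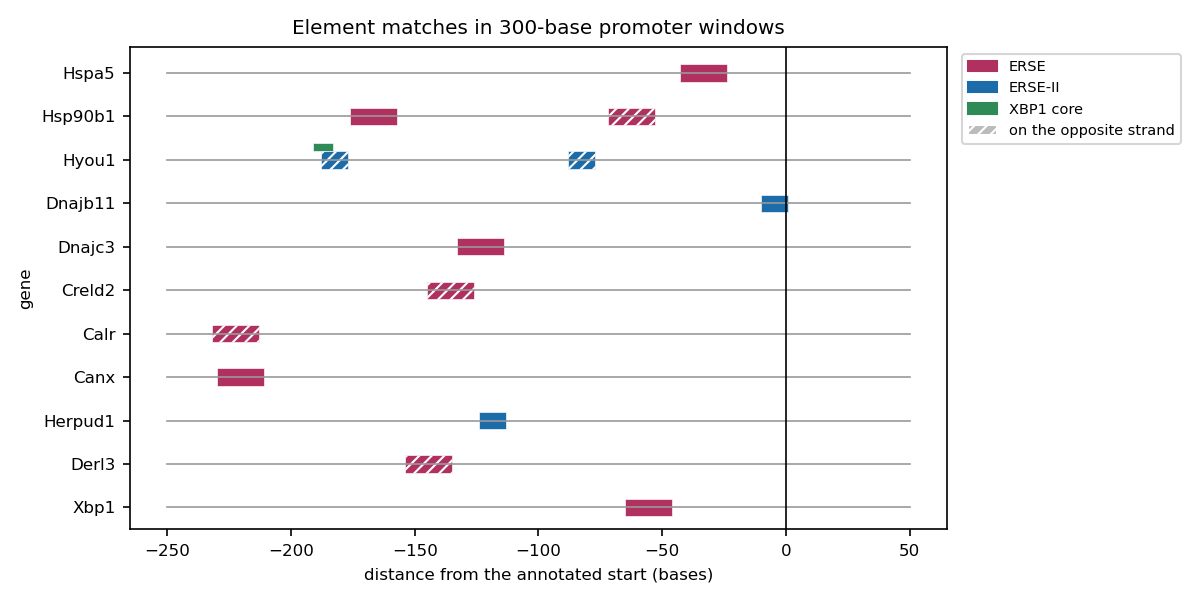
Positions of ERSE, ERSE-II and the XBP1 core in the 300-base windows of the 11 genes that held ERSE or ERSE-II, in bases from the annotated start; hatched bars are matches on the opposite strand. Matches run from the far end of the window in Calr and Canx to the start itself in Dnajb11.

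Across the 8 labelled groups 33 of the 34 genes differed in edgeR's joint quasi-likelihood test at an adjusted p under 0.05, which 89.5% of all tested genes did. Ssr2, a subunit of the translocon-associated complex, was the exception (adjusted p = 0.22). Together the 34 genes took 0.817% to 1.43% of counts on genes. Their share was highest in vector 10 d (1.40% ± 0.0381, SD, n = 3) and vector 24 h (1.22% ± 0.0908), both of them 3D by the file names, and lowest in vector 3 d (0.842% ± 0.0217) and vector 6 h (0.850% ± 0.0470), both of them 6H. Of the 34 genes 22 had their highest group mean in vector 10 d and 10 had their lowest in vector 3 d. Bulk RNA cannot tell fewer cells that express a gene from less RNA per cell.

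**Figure D2:**
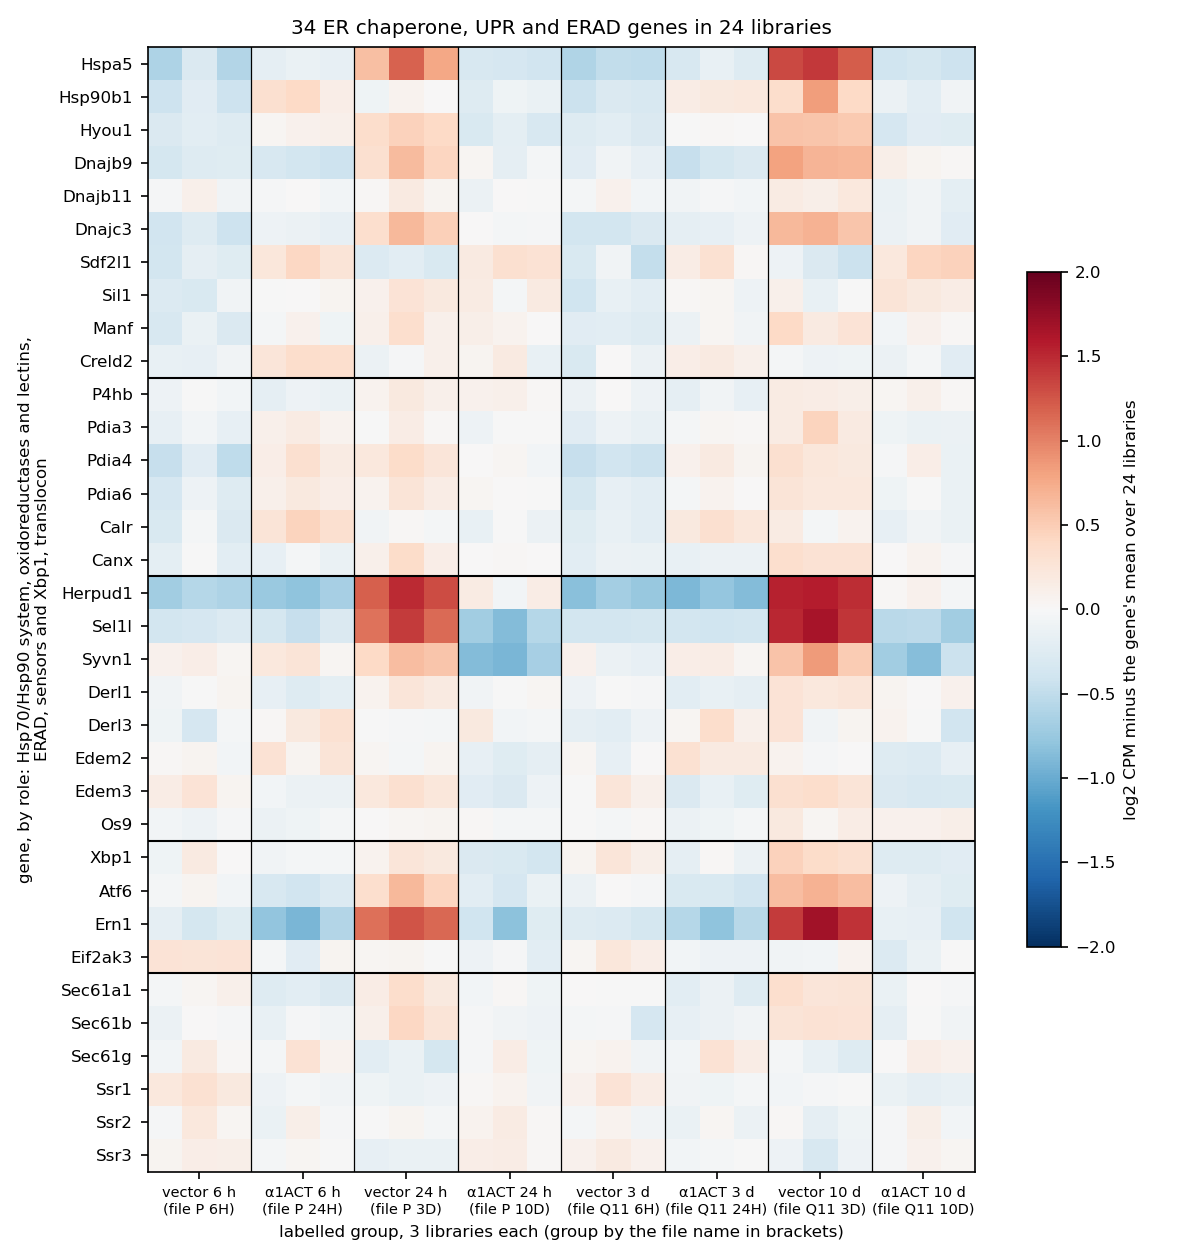
Log2 CPM of each of the 34 genes in each of the 24 libraries, minus that gene's mean; columns are the labelled groups with the file-name group in brackets, rows are ordered by role. Herpud1, Sel1l, Ern1 and Hspa5 stand out in the vector 24 h and vector 10 d libraries, and Syvn1 is low in α1ACT 24 h and 10 d.

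Between the labelled lines, more of these genes were called lower than higher in α1ACT at 24 h and 10 d, and more were called higher than lower at 6 h and 3 d. At 24 h α1ACT was lower in 19 genes and higher in 3, against 28.8% and 26.6% of all tested genes, with a median log2 difference of -0.17 for the 34 genes and -0.02 for all tested. At 10 d it was lower in 24 and higher in 4, against 29.4% and 29.5%, with medians of -0.29 and 0.01. All 19 genes lower at 24 h were among the 24 lower at 10 d (100% and 79.2% of each list), and these comparisons share no library. Overlap of such calls among all tested genes was not counted, here or for the overlaps given below. At 6 h α1ACT was higher in 14 genes and lower in 7, against 20.5% and 21.2% of all tested genes. At 3 d it was higher in 14 and lower in 10, against 19.9% and 19.4%. The 14 higher genes were the same at 6 h and 3 d, and all 7 lower at 6 h were among the 10 lower at 3 d (100% and 70% of each list). Medians of the 34 genes were near 0 at both times, -0.00 at 6 h and 0.01 at 3 d. Without all libraries numbered 1, or without all numbered 3, the count at 3 d was 13 and not 24. Calls that were kept under each of 15 alternative settings numbered 13 of 21 at 6 h (7 higher and 6 lower), 17 of 22 at 24 h (2 and 15), 9 of 24 at 3 d (6 and 3) and 20 of 28 at 10 d (1 and 19). At 6 h the calls kept were thus split nearly evenly. Averaged over the 4 times, α1ACT was lower in 19 genes and higher in 7, against 32.7% and 33.6%.

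The size of the line difference varied with the labelled time in 25 of the 34 genes (edgeR joint test of line by time, adjusted p under 0.05), against 57.7% of all tested genes. By the file names the 24 h and 10 d differences are 10D against 3D within P and within Q11, and those of 6 h and 3 d are 24H against 6H. Without scaling factors the calls among all tested genes moved towards higher, from 49.1% to 60.3% of calls at 6 h and from 50.6% to 59.7% at 3 d. For the 34 genes the split was then 14 higher and 7 lower at 3 d.

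**Figure D3:**
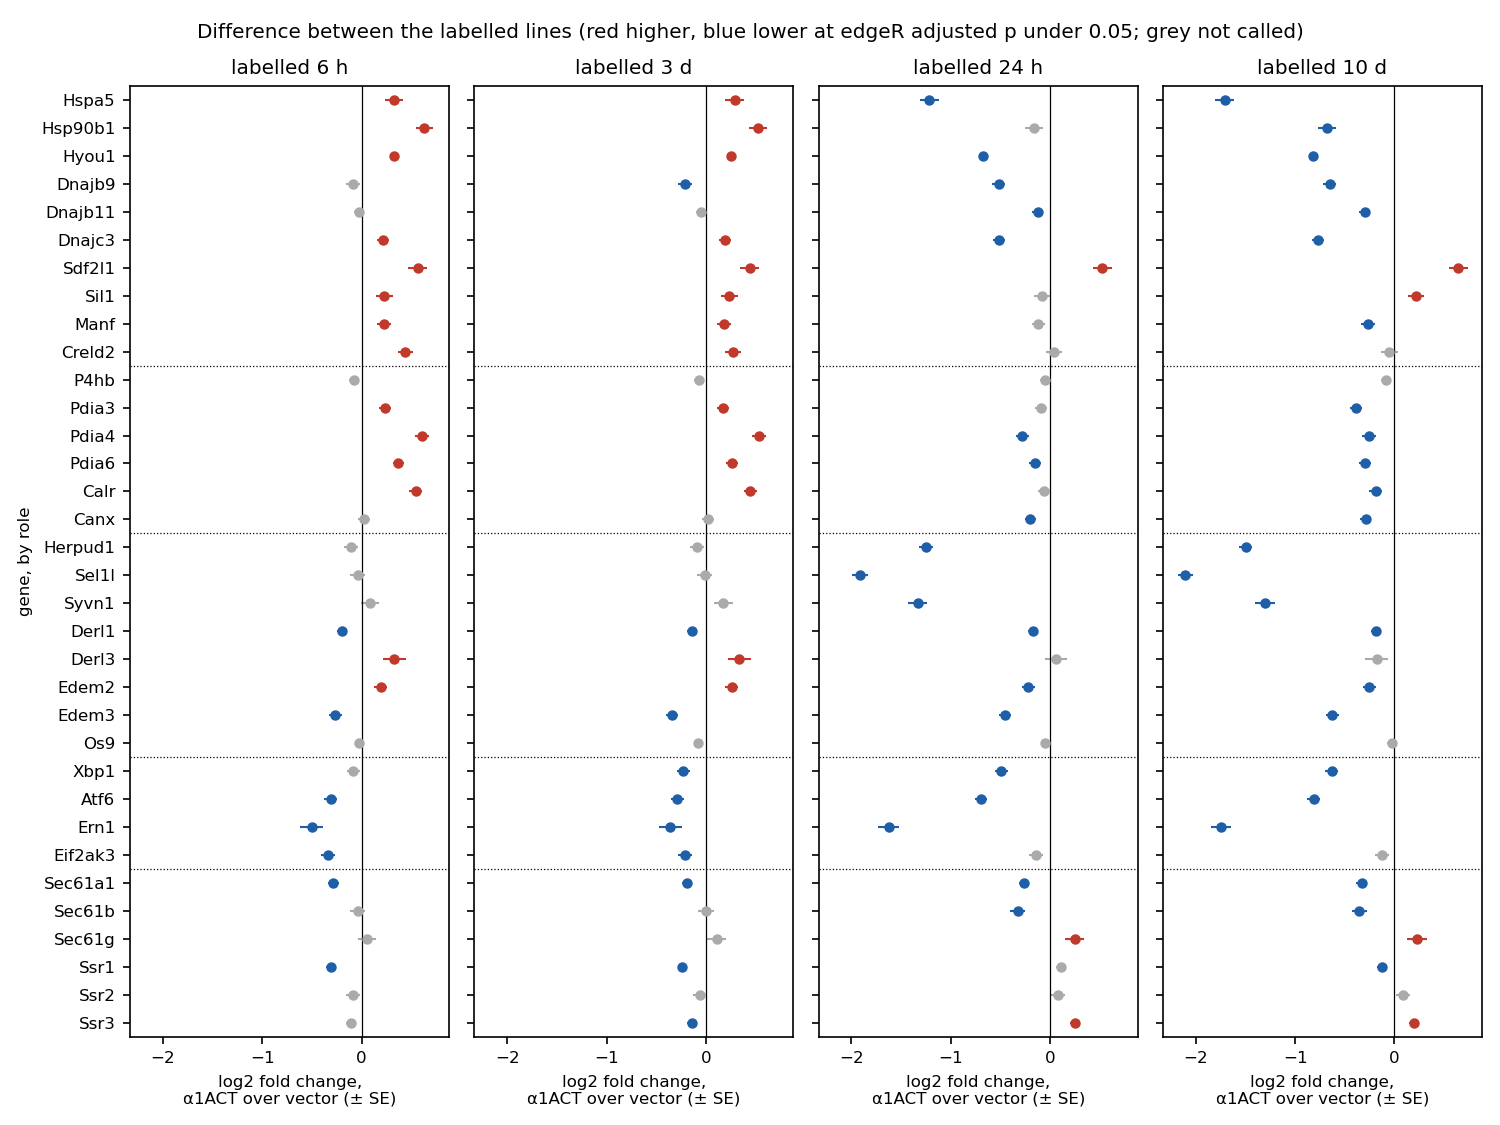
Log2 fold change of α1ACT over vector with its SE for each of the 34 genes at each labelled time, from the edgeR fit; red and blue points passed an adjusted p of 0.05, grey points did not. The panels of 6 h and 3 d show Hsp90b1, Pdia4, Calr and Sdf2l1 to the right, and those of 24 h and 10 d show Sel1l, Ern1, Hspa5, Herpud1 and Syvn1 far to the left.

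The Hsp70 and Hsp90 system of the lumen comprises the Hsp70 chaperone Hspa5 (BiP), the Hsp90 chaperone Hsp90b1 (GRP94), the large Hsp70 Hyou1, which exchanges nucleotide on BiP as Sil1 does, the J-domain partners Dnajb9, Dnajb11 and Dnajc3, the J-domain binding protein Sdf2l1, and the secreted or lumenal stress proteins Manf and Creld2. In this group α1ACT was higher in 8 of 10 genes at 6 h and lower in none, and higher in 8 and lower in 1 at 3 d. It was lower in 5 and higher in 1 at 24 h, and lower in 7 and higher in 2 at 10 d. Shares of all tested genes for these and the later counts by role are those given above for each time, between 19.4% and 29.5% in either direction. Hspa5 read 802, 1006 and 821 CPM in vector 6 h for replicates 1, 2 and 3, and 1081, 1126 and 1094 in α1ACT 6 h. At 24 h it read 1876, 2777 and 2108 in vector against 985, 979 and 946 in α1ACT. Values at 3 d were 812, 879 and 865 against 984, 1108 and 1033, and at 10 d 3074, 3261 and 2854 against 933, 962 and 920. Every vector library of 24 h and 10 d lay above every other library, and at 6 h and 3 d the α1ACT libraries lay above the vector libraries of the same time. Hspa5 was thus 2.32-fold lower in α1ACT at 24 h (log2 difference -1.22 ± 0.09 SE, adjusted p = 6.1e-11) and 3.26-fold lower at 10 d (-1.71 ± 0.10, adjusted p = 2.3e-13). It was 1.26-fold higher at 6 h (0.33 ± 0.09, adjusted p = 0.0066) and 1.22-fold higher at 3 d (0.29 ± 0.09, adjusted p = 0.016). Both of these smaller calls were lost without all libraries numbered 1 or all numbered 3, and that of 3 d also without vector 3 d replicate 1 or α1ACT 3 d replicate 2 (adjusted p up to 0.12 and 0.11).

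Hyou1 followed the same outline with little spread. Vector 6 h read 400, 424 and 410 CPM and α1ACT 6 h 503, 520 and 527. At 24 h vector read 626, 676 and 644 and α1ACT 397, 427 and 393. Vector 3 d read 411, 423 and 402 against 488, 500 and 490, and vector 10 d 726, 719 and 704 against 389, 417 and 412. No vector library overlapped an α1ACT library of its time, and the sign changed between times: higher in α1ACT by 1.26-fold at 6 h and 1.19-fold at 3 d, and lower by 1.60-fold at 24 h and 1.76-fold at 10 d (adjusted p between 8.5e-14 and 4.7e-05). Dnajc3, the co-chaperone also known as P58IPK, read 125, 136 and 122 CPM in vector 6 h and 151, 149 and 145 in α1ACT 6 h. In the 24 h libraries it read 205, 255 and 226 in vector and 164, 157 and 160 in α1ACT. Readings at 3 d were 126, 126 and 132 against 144, 145 and 151, and at 10 d 254, 262 and 239 against 149, 155 and 139. Groups did not overlap at any of the 4 times, with α1ACT lower by 1.42-fold at 24 h and by 1.70-fold at 10 d, and 1.16-fold and 1.14-fold higher at 6 h and 3 d. The last pair was lost without all libraries numbered 1 or all numbered 3, and that of 3 d also without vector 3 d replicate 1 or 2 or α1ACT 3 d replicate 3 (adjusted p up to 0.12 for both).

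Other members of this group split by direction. Hsp90b1 was 1.55-fold higher in α1ACT at 6 h (log2 difference 0.63 ± 0.09, adjusted p = 4.1e-06) and 1.44-fold higher at 3 d. At 10 d the level was 1.60-fold lower, where vector libraries read 613, 854 and 634 CPM and α1ACT libraries 445, 413 and 456. At 24 h its difference was -0.16 ± 0.09 (adjusted p = 0.12). Dnajb9, known as ERdj4, was lower by 1.43-fold at 24 h and by 1.57-fold at 10 d, with -0.09 ± 0.07 at 6 h (adjusted p = 0.31) and a 1.16-fold lower level at 3 d that was lost without vector 3 d replicate 2 or α1ACT 3 d replicate 1. Dnajb11 was lower by 1.23-fold at 10 d and by 1.09-fold at 24 h, the latter lost under 11 of 15 alternatives. Manf was 1.20-fold lower at 10 d and 1.17-fold higher at 6 h, the first lost without all libraries numbered 1 (adjusted p = 0.11) and the second without α1ACT 6 h replicate 2 among others (adjusted p up to 0.13). At 3 d Manf was also called higher, and that call was not kept under every alternative. Creld2 was higher by 1.36-fold at 6 h and by 1.21-fold at 3 d, the latter lost without vector 3 d replicate 1, with no call at 24 h (0.04 ± 0.08) or 10 d (-0.05 ± 0.08).

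In Sdf2l1 α1ACT was higher at every labelled time. Its vector libraries read 30.4, 34.6 and 33.4 CPM at 6 h, 32.5, 34.1 and 31.9 at 24 h, 31.7, 37.3 and 28.2 at 3 d and 36.5, 32.1 and 29.3 at 10 d. The α1ACT libraries read 46.2, 52.2 and 47.2, then 44.7, 48.9 and 48.1, then 43.5, 48.5 and 40.1, and last 45.4, 53.2 and 54.3. All 12 α1ACT libraries lay above all 12 vector libraries, by 1.48-fold, 1.44-fold, 1.36-fold and 1.56-fold in that order (adjusted p between 2.4e-06 and 0.00069), and the difference between times was not called (line by time, adjusted p = 0.59). Sil1 was also higher in α1ACT at 10 d, at 31.7, 30.4 and 29.6 CPM against 28.6, 23.9 and 26.3, a 1.16-fold difference that was lost under 9 of 15 alternatives (adjusted p = 0.030, and up to 0.16). It was called higher at 6 h and 3 d too, and neither call was kept under every alternative.

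**Figure D4:**
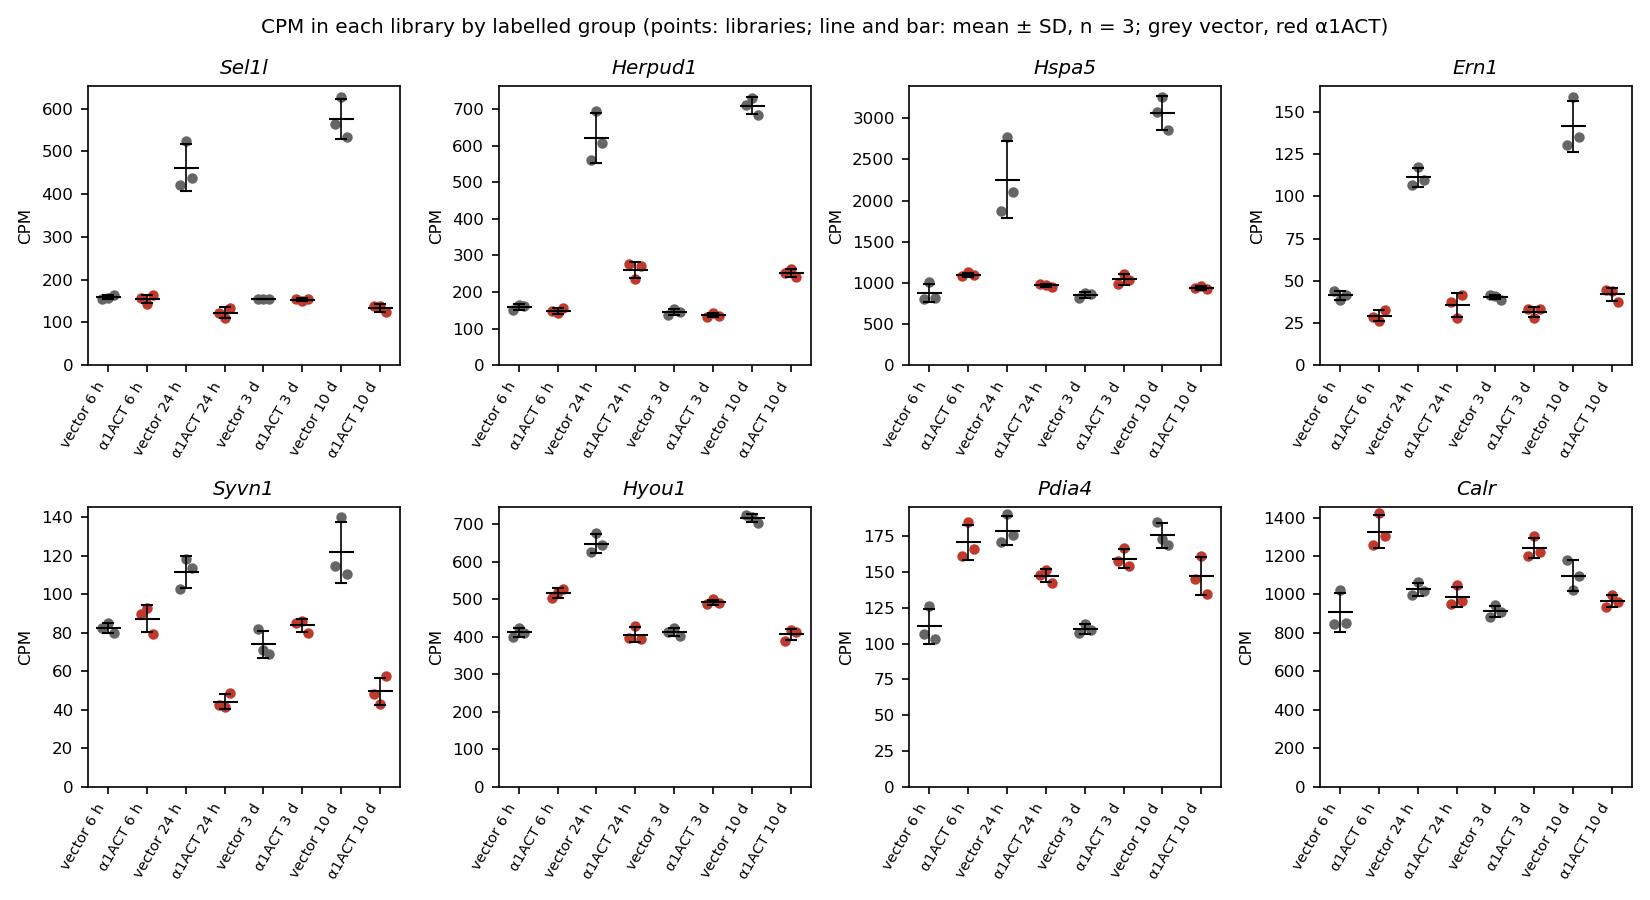
CPM of 8 genes in each library by labelled group (points), with mean and SD of 3 libraries; axes start at 0. Sel1l, Herpud1, Hspa5 and Ern1 are highest in vector 24 h and 10 d, Syvn1 is lowest in α1ACT 24 h and 10 d, and Calr is highest in α1ACT 6 h and 3 d.

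Oxidoreductases and lectin chaperones were higher in α1ACT in 4 of 6 genes at 6 h and the same number at 3 d, and lower in 3 at 24 h and 5 at 10 d. Pdia4, a disulfide isomerase known as ERp72, read 107, 126 and 103 CPM in vector 6 h and 161, 185 and 166 in α1ACT 6 h. At 24 h it read 171, 191 and 176 in vector and 148, 152 and 143 in α1ACT. Vector 3 d libraries read 107, 114 and 109 against 158, 167 and 154, and vector 10 d libraries 185, 173 and 169 against 145, 161 and 135. The 6 lowest values were those of vector 6 h and 3 d, and no vector group overlapped the α1ACT group of its time. Pdia4 was 1.52-fold and 1.45-fold higher in α1ACT at 6 h and 3 d (log2 differences 0.60 ± 0.07 and 0.53 ± 0.07, adjusted p = 2.3e-07 and 1.7e-06). It was 1.21-fold and 1.19-fold lower at 24 h and 10 d (adjusted p = 0.0013 and 0.0028), the latter not called without all libraries numbered 1 (adjusted p = 0.087).

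Calr, calreticulin, the soluble lectin chaperone and calcium store protein, read 846, 1024 and 853 CPM in vector 6 h and 1258, 1422 and 1303 in α1ACT 6 h. It read 997, 1065 and 1019 in vector 24 h and 948, 1047 and 965 in α1ACT 24 h. At 3 d its values were 884, 944 and 907 against 1201, 1303 and 1222, and at 10 d 1179, 1022 and 1095 against 936, 998 and 961. The 6 α1ACT libraries of 6 h and 3 d were the highest of the 24, and groups overlapped at 24 h. Calr was 1.46-fold higher in α1ACT at 6 h (adjusted p = 3.5e-07) and 1.36-fold higher at 3 d (adjusted p = 7.5e-06). At 24 h the difference was -0.06 ± 0.07 (adjusted p = 0.47) and at 10 d 1.14-fold lower, a call lost without vector 10 d replicate 1, α1ACT 10 d replicate 1 or all libraries numbered 1 or 3 (adjusted p up to 0.26).

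Pdia6, the isomerase P5, read 237, 277 and 248 CPM in vector 6 h against 319, 342 and 326 in α1ACT 6 h, and 313, 357 and 332 in vector 24 h against 305, 300 and 298. At 3 d its readings were 233, 265 and 258 against 290, 314 and 301, and at 10 d 356, 343 and 344 against 280, 298 and 272. The groups did not overlap at any time, with α1ACT 1.29-fold and 1.20-fold higher at 6 h and 3 d and 1.23-fold lower at 10 d. The 1.11-fold difference of 24 h was lost under 7 of 15 alternatives, among them without replicate 2 or 3 of either line at 24 h (adjusted p up to 0.18). Pdia3, the glycoprotein isomerase ERp57, was 1.30-fold lower at 10 d and 1.18-fold higher at 6 h, the latter lost without all libraries numbered 1 (adjusted p = 0.058). It was also called higher at 3 d, a call that was not kept under every alternative. Canx, the membrane-bound lectin calnexin, was 1.15-fold lower at 24 h, a call lost without vector 24 h replicate 2 (adjusted p = 0.084), and 1.22-fold lower at 10 d. P4hb, the main disulfide isomerase, was not called at any of the 4 times (log2 differences between -0.09 and -0.05, adjusted p of at least 0.11), though it was lower in the average of the times (1.05-fold, adjusted p = 0.0073), a call lost without all libraries numbered 3 (adjusted p = 0.095).

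The ERAD gene Sel1l held the largest line difference among the 34 genes at both 24 h and 10 d. Of the 8 listed in the files, 6 were lower in α1ACT at 24 h and the same number at 10 d, with none higher. Sel1l, the scaffold of the HRD1 ubiquitin ligase complex, read 155, 158 and 164 CPM in vector 6 h and 156, 144 and 163 in α1ACT 6 h. At 24 h it read 422, 525 and 438 in vector and 123, 109 and 135 in α1ACT. Readings of 3 d were 155, 154 and 156 against 155, 151 and 155, and those of 10 d 565, 627 and 535 against 138, 139 and 123. High values stood in vector 24 h and 10 d alone, and the libraries of 6 h and 3 d overlapped between lines. Sel1l was 3.77-fold lower in α1ACT at 24 h (log2 difference -1.91 ± 0.08, adjusted p = 1.1e-15) and 4.31-fold lower at 10 d (-2.11 ± 0.08, adjusted p = 1.9e-16). At 6 h and 3 d its differences were -0.04 ± 0.08 and -0.01 ± 0.08 (adjusted p = 0.71 and 0.92).

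Herpud1, a membrane protein that brings the ligase complex together, read 151, 166 and 161 CPM in vector 6 h against 147, 141 and 156 in α1ACT 6 h. Its 24 h libraries read 561, 695 and 608 against 275, 236 and 272. The 3 d libraries read 138, 154 and 145 against 131, 143 and 135, and those of 10 d 712, 731 and 684 against 251, 262 and 240. Unlike Sel1l, Herpud1 was also higher in α1ACT 24 h and 10 d than in any library of 6 h or 3 d, so its levels formed 3 tiers without overlap. It was 2.38-fold lower in α1ACT at 24 h (-1.25 ± 0.07, adjusted p = 1.3e-13) and 2.82-fold lower at 10 d (-1.50 ± 0.07, adjusted p = 5.4e-15), with -0.11 ± 0.07 and -0.09 ± 0.07 at 6 h and 3 d.

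Syvn1, which encodes the ubiquitin ligase HRD1 itself, read 82.4, 85.0 and 80.0 CPM in vector 6 h against 89.5, 93.1 and 79.5 in α1ACT 6 h. Its readings at 24 h were 103, 119 and 114 against 42.5, 41.4 and 48.8. The 3 d values were 82.2, 71.1 and 69.2 against 85.2, 86.2 and 80.0, and the 10 d values 115, 140 and 111 against 48.0, 43.1 and 57.4. Here the line difference came from both sides, with the highest values in vector 24 h and 10 d and the lowest in α1ACT 24 h and 10 d. Syvn1 was 2.52-fold lower in α1ACT at 24 h (-1.33 ± 0.10, adjusted p = 1.8e-11) and 2.47-fold lower at 10 d (-1.30 ± 0.10, adjusted p = 2.6e-11).

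The other ERAD genes moved less. Edem3, a mannose-trimming protein that marks glycoproteins for disposal, was lower in α1ACT at all 4 times, by 1.20-fold at 6 h, 1.37-fold at 24 h, 1.27-fold at 3 d and 1.54-fold at 10 d. Edem2, of the same family, was 1.14-fold and 1.20-fold higher at 6 h and 3 d and 1.16-fold and 1.19-fold lower at 24 h and 10 d. Each of these was lost without all libraries numbered 1, and that of 6 h also without vector 6 h replicate 3 or α1ACT 6 h replicate 1 or 3 (adjusted p up to 0.28). Derl1, a derlin of the retrotranslocation channel, was lower at all 4 times by 1.10-fold to 1.14-fold, the call of 3 d being lost without vector 3 d replicate 2 or 3 or α1ACT 3 d replicate 1 (adjusted p up to 0.20). Its call of 6 h was not kept under every alternative either. Derl3 was 1.26-fold higher at 6 h and at 3 d, the first lost without vector 6 h replicate 2 or α1ACT 6 h replicate 3 and the second without vector 3 d replicate 1 or 2 or α1ACT 3 d replicate 2 (adjusted p up to 0.12 and 0.20), with no call at 24 h or 10 d. Os9, a lectin of the HRD1 complex, was not called at any time (differences between -0.07 and -0.03).

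All 4 genes of the sensors and Xbp1 were lower in α1ACT on average over the times, against 32.7% of all tested genes. Ern1, which encodes the kinase and nuclease IRE1α, read 43.7, 38.6 and 41.8 CPM in vector 6 h against 28.7, 26.2 and 32.7 in α1ACT 6 h. At 24 h its readings were 106, 118 and 109 against 37.6, 28.0 and 41.8. Vector 3 d libraries read 41.5, 40.8 and 38.9 against 33.1, 28.2 and 33.5, and vector 10 d libraries 130, 159 and 135 against 44.4, 44.2 and 37.4. No group overlapped its counterpart of the other line, and vector 24 h and 10 d stood far above all other groups. Ern1 was 3.08-fold lower in α1ACT at 24 h (-1.62 ± 0.10, adjusted p = 1.8e-12) and 3.36-fold lower at 10 d (-1.75 ± 0.10, adjusted p = 4.9e-13). It was 1.42-fold lower at 6 h (adjusted p = 9.0e-04) and 1.28-fold lower at 3 d (adjusted p = 0.014), the last lost without α1ACT 3 d replicate 2 or all libraries numbered 1 (adjusted p up to 0.083).

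Atf6, the sensor that is cut in the Golgi to release a transcription factor, read 176, 186 and 173 CPM in vector 6 h against 144, 139 and 148 in α1ACT 6 h. In vector 24 h Atf6 read 228, 280 and 241 against 155, 143 and 163. Values of 3 d were 166, 180 and 177 against 145, 146 and 138, and of 10 d 276, 290 and 276 against 167, 160 and 153. Vector exceeded α1ACT without overlap at all 4 times, by 1.24-fold, 1.62-fold, 1.22-fold and 1.76-fold in that order (adjusted p between 4.2e-11 and 7.3e-04). Xbp1, the factor whose message IRE1 splices, was lower by 1.41-fold at 24 h, by 1.55-fold at 10 d and by 1.17-fold at 3 d, the last lost without vector 3 d replicate 2 (adjusted p = 0.091 at most). The counts are per gene and do not separate its spliced from its unspliced form. Eif2ak3, which encodes PERK, was lower in α1ACT by 1.26-fold at 6 h and not called at 24 h (-0.14 ± 0.07) or 10 d (-0.12 ± 0.07). Its 1.16-fold lower level of 3 d was lost under 6 of 15 alternatives, among them without vector 3 d replicate 2 or α1ACT 3 d replicate 2 or 3 (adjusted p up to 0.14).

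Of the 6 translocon genes 2 were lower and none higher in α1ACT at 6 h, and 3 lower and none higher at 3 d. At 24 h 2 were lower and 2 higher, and at 10 d 3 were lower and 2 higher. With 6 genes, 2 in a direction at 24 h is near the 28.8% and 26.6% of all tested genes. Sec61a1, the channel subunit, read 314, 333 and 347 CPM in vector 6 h against 270, 280 and 266 in α1ACT 6 h, and 357, 411 and 371 in vector 24 h against 313, 330 and 307. The 3 d libraries read 324, 322 and 323 against 281, 300 and 270, and those of 10 d 408, 384 and 385 against 294, 326 and 317. Vector was the higher without overlap at each time, by 1.14-fold to 1.26-fold (adjusted p between 1.1e-05 and 0.0074). The call of 3 d was lost without all libraries numbered 1 or all numbered 3 (adjusted p up to 0.15).

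Ssr1, the alpha subunit of the translocon-associated complex, read 272, 291 and 269 CPM in vector 6 h against 219, 229 and 223 in α1ACT 6 h, and 249, 284 and 261 in vector 3 d against 225, 221 and 229. At 24 h it read 223, 214 and 220 against 239, 246 and 224, and at 10 d 227, 231 and 234 against 215, 207 and 213. Its high values were those of vector 6 h and 3 d, and α1ACT was 1.24-fold lower at 6 h (adjusted p = 1.1e-05) and 1.18-fold lower at 3 d (adjusted p = 3.1e-04). The 1.09-fold lower level of 10 d was lost under 6 of 15 alternatives, among them without vector 10 d replicate 2 or 3 or α1ACT 10 d replicate 2. Sec61b, the small beta subunit of the channel, read 47.4, 58.6 and 52.6 CPM in vector 24 h against 43.4, 41.7 and 41.0, and 52.6, 54.0 and 53.1 in vector 10 d against 39.0, 44.0 and 42.0. In the 6 h libraries it read 40.6, 44.2 and 43.5 against 39.7, 43.4 and 41.8, and at 3 d 42.7, 43.4 and 34.8 against 39.1, 40.7 and 41.8. The lines overlapped at 6 h and 3 d and were apart at 24 h (1.25-fold lower in α1ACT) and 10 d (1.28-fold lower).

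Sec61g, the gamma subunit of the channel, and Ssr3 were higher in α1ACT at 24 h and 10 d. At 3 d Ssr3 was called lower in α1ACT, a call that was not kept under every alternative. Sec61g read 28.8, 30.4 and 26.0 CPM in vector 24 h against 33.0, 36.9 and 31.4, and 32.5, 30.0 and 27.8 in vector 10 d against 33.7, 36.7 and 35.4. These 1.19-fold and 1.17-fold differences (adjusted p = 0.030 and 0.047) were lost without vector 24 h replicate 3 or α1ACT 24 h replicate 2 at 24 h, and under 9 of 15 alternatives at 10 d, among them without replicate 2 or 3 of either line and by DESeq2 (adjusted p up to 0.15 and 0.31). Ssr3 read 241, 248 and 247 CPM in vector 24 h against 297, 302 and 275, and 253, 218 and 254 in vector 10 d against 268, 287 and 278. The groups did not overlap, and α1ACT was 1.19-fold higher at 24 h (adjusted p = 2.0e-04) and 1.15-fold higher at 10 d (adjusted p = 0.0018), the latter not called without all libraries numbered 2 (adjusted p = 0.063).

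Counts of calls were also taken by promoter, with the genes that held ERSE or ERSE-II beside the others. Among all tested genes 20.5% were higher in α1ACT and 21.2% lower at 6 h, and 19.9% and 19.4% at 3 d. These shares were 26.6% and 28.8% at 24 h, and 29.5% and 29.4% at 10 d. Of the 11, 7 were higher in α1ACT and none lower at 6 h, 7 were higher and 1 lower at 3 d, none was higher and 7 lower at 24 h, and none was higher and 9 lower at 10 d. Their median log2 differences in that order were 0.33, 0.26, -0.20 and -0.63. Of the 15 matched and listed genes without either form, 4 were higher and 3 lower at 6 h, 4 higher and 5 lower at 3 d, 3 higher and 7 lower at 24 h, and 4 higher and 8 lower at 10 d, with medians of -0.04, -0.01, -0.14 and -0.13. The 8 genes whose promoter was not matched had 3 higher and 4 lower at 6 h and at 3 d, none higher and 5 lower at 24 h, and none higher and 7 lower at 10 d, with medians of -0.11, -0.11, -0.16 and -0.31. At 24 h the medians of the 3 sets lay close together, and no difference between the sets was tested. Sel1l and Syvn1, with differences of over 2-fold at 24 h and 10 d, were among those without.

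Within a labelled line, the genes differed between 6 h and 24 h and between 3 d and 10 d. In the labelled vector libraries 21 genes were higher and 4 lower at 24 h than at 6 h, against 31.6% and 29.9% of all tested genes, with a median of 0.19. At 10 d against 3 d 26 were higher and 2 lower, against 33.2% and 31.0%, with a median of 0.28. All 21 were among the 26 (100% and 80.8% of each list), with no shared library. Herpud1 was 3.90-fold higher at 24 h than at 6 h (log2 difference 1.96 ± 0.07, adjusted p = 2.9e-17) and 4.88-fold higher at 10 d than at 3 d (2.29 ± 0.07, adjusted p = 1.5e-18). Sel1l was 2.91-fold and 3.72-fold higher, Ern1 2.68-fold and 3.5-fold, and Hspa5 2.57-fold and 3.60-fold. Eif2ak3, Sec61g, Ssr1 and Ssr3 were lower at 24 h, by 1.18-fold to 1.27-fold, and Ssr1 and Ssr3 also at 10 d than at 3 d, by 1.15-fold and 1.21-fold. The call of Sec61g was lost without vector 6 h replicate 2 or vector 24 h replicate 3 (adjusted p up to 0.14). These 2 comparisons are 3D against 6H by the file names.

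In the labelled α1ACT libraries the genes moved less and in both directions. At 24 h against 6 h 6 were higher and 10 lower, against 21.7% and 22.4% of all tested genes. At 10 d against 3 d 9 were higher and 7 lower, against 21.8% and 22.8%. Without scaling factors the latter split was 6 higher and 12 lower, and among all tested genes the share of calls that were higher went from 48.9% to 40.0%. Without all libraries numbered 3 the count at 24 h against 6 h was 10. Herpud1 was 1.77-fold and 1.84-fold higher, Dnajb9 1.24-fold and 1.34-fold higher, and P4hb 1.15-fold higher in both. Syvn1 was 1.97-fold and 1.70-fold lower, Hsp90b1 1.37-fold and 1.25-fold lower, Edem2 1.32-fold and 1.37-fold lower, and Calr 1.35-fold and 1.29-fold lower. Hspa5 was not called in either (-0.18 ± 0.09 and -0.15 ± 0.09, adjusted p = 0.12 and 0.20). These are 10D against 24H by the file names. Comparisons within a line share libraries with the line differences given above and are not independent of them.

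**Figure D5:**
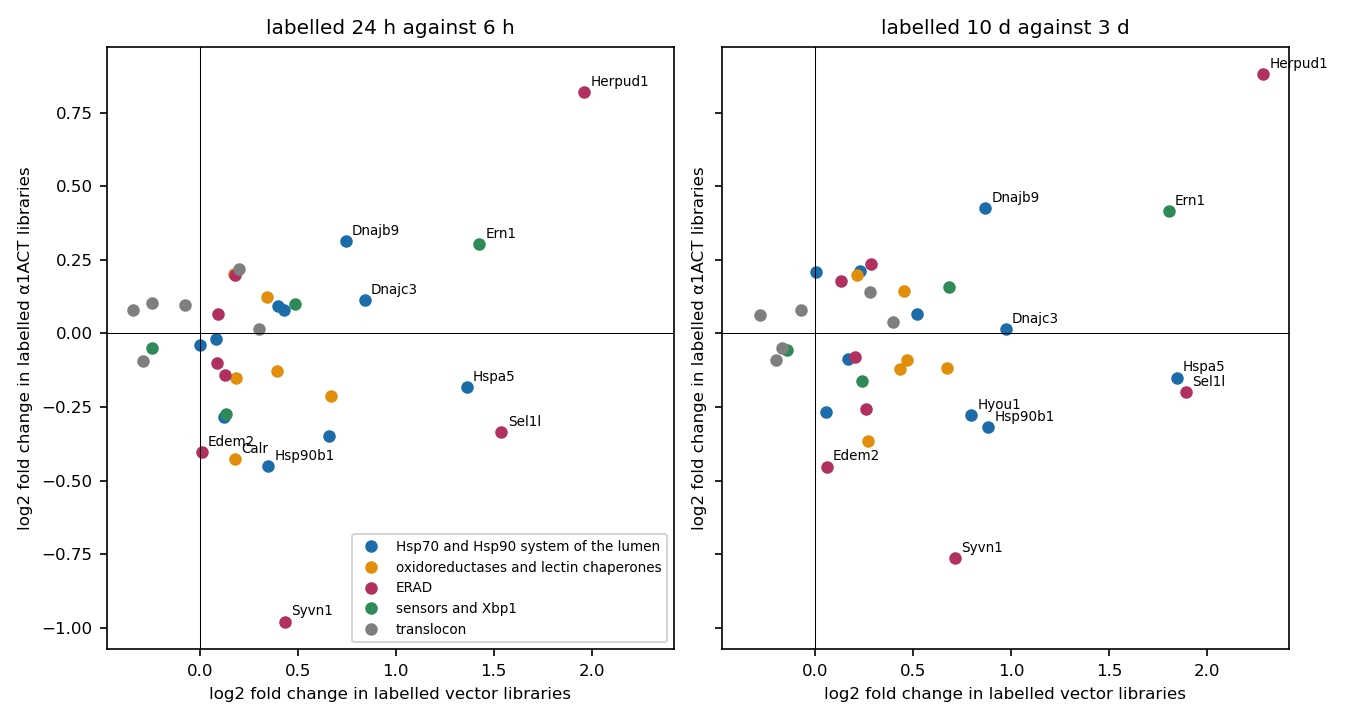
Log2 fold change of 24 h against 6 h (left) and of 10 d against 3 d (right) in the labelled vector libraries (horizontal axis) and the labelled α1ACT libraries (vertical axis), 1 point per gene, coloured by role. Herpud1 lies above 0 in both lines, Syvn1 above 0 in vector and below in α1ACT, and Hspa5 and Sel1l far to the right with small values on the vertical axis.

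Between labelled times that share a file-name time, edgeR called genes of the list only between vector 10 d and 24 h. None of the 34 was called between vector 3 d and 6 h (1.47% of all tested genes), with none at an unadjusted p under 0.05 and none by DESeq2. None was called between α1ACT 3 d and 6 h (1.06%), with Creld2 and Pdia6 at an unadjusted p under 0.05 and none by DESeq2, though 1 gene was called without all libraries numbered 2. Between vector 10 d and 24 h 8 were higher and none lower, against 4.29% of all tested genes that were higher. They were Hsp90b1 (1.45-fold, adjusted p = 5.9e-04), Hspa5 (1.36-fold, adjusted p = 0.0041), Ern1 (1.27-fold), Sel1l (1.25-fold), Dnajb9 (1.19-fold), Pdia3 and Xbp1 (1.16-fold each) and Hyou1 (1.10-fold). The number was 2 when only these 6 libraries were fitted, 2 without vector 24 h replicate 1 or replicate 3, 3 without vector 10 d replicate 2 and 5 without vector 10 d replicate 1. It was 1 without all libraries numbered 1 or all numbered 3, 15 without all numbered 2 and 12 without vector 24 h replicate 2. Only Hsp90b1 kept its call in every one of these, and its vector 10 d replicate 2 stood at 854 CPM beside 613 and 634. Between α1ACT 10 d and 24 h none was called by edgeR (4.62%), with Os9 and Ssr1 at an unadjusted p under 0.05 and 1 gene called by DESeq2 (smallest edgeR adjusted p 0.052, Ssr1). The count was 1 without α1ACT 24 h replicate 3.

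By the file names those 4 comparisons are the α1ACT line, Q11, against the vector line, P, at 6H, 24H, 3D and 10D. Pooled over the 4 named times, Q11 was higher in 3 of the 34 genes and lower in none, against 8.25% of all tested genes that were higher. These were Ern1 (log2 difference 0.16, adjusted p = 0.039), Dnajb9 (1.09-fold, adjusted p = 0.012) and Os9 (1.05-fold, adjusted p = 0.030), and no call of the 3 was kept under every alternative. The count was 0 without all libraries numbered 1 and 6 without vector 24 h replicate 2. It was 5 without α1ACT 24 h replicate 3 or all numbered 2, and 1 without all numbered 3 or without any single one of α1ACT 6 h replicate 1 or 2, vector 24 h replicate 1, α1ACT 24 h replicate 2 and α1ACT 3 d replicate 3. Line by time under the file names gave no call among the 34 genes in edgeR, against 0.0400% of all tested genes, with 8 at an unadjusted p under 0.05 (Dnajc3, Herpud1, Hsp90b1, Hspa5, Hyou1, Pdia3, Sel1l and Ssr1), and 3 by DESeq2. It gave 4 calls without vector 24 h replicate 2, 8 without all libraries numbered 2, and 1 each without α1ACT 24 h replicate 3, vector 10 d replicate 1 or α1ACT 10 d replicate 2. Among all tested genes 1219 of 9994 were at an unadjusted p under 0.05, and 127 of 13187 were called by DESeq2. Calls with libraries left out, in the order just given, were 67 of 10060, 371 of 10015, 152 of 10056, 36 of 10055 and 42 of 10061.

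The step from 24H to 3D by the file names, which joins libraries of both labelled lines, was also given for each prefix. Within P, 3D was higher than 24H in 18 genes and lower in 7, against 26.8% and 27.0% of all tested genes. Within Q11 it was higher in 22 and lower in 6, against 28.6% and 29.7%. All 18 were among the 22 (100% and 81.8% of each list), and these comparisons share no library. Herpud1 (4.20-fold and 5.19-fold higher), Ern1 (3.80-fold and 4.47-fold), Sel1l (2.99-fold and 3.75-fold) and Hspa5 (2.05-fold and 2.94-fold) led, and Sdf2l1 (1.48-fold and 1.35-fold lower) and Calr (1.29-fold and 1.13-fold lower) were among those that fell. The fall of Calr within Q11 was lost without α1ACT 3 d replicate 2 or vector 10 d replicate 2 (adjusted p up to 0.13). In the file-name order of 6H, 24H, 3D and 10D, Sel1l therefore read means of 159, 155, 462 and 122 CPM for P and 155, 154, 576 and 134 CPM for Q11, so that neighbours 6H and 24H did not differ beyond their spread and 3D stood apart. Calr in the same order read 908, 1327, 1027 and 987 CPM for P and 912, 1242, 1099 and 965 CPM for Q11.

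The amino acid arm of the stress response, which PERK and other kinases start through ATF4, was counted apart. Of its 15 tested genes 15 were higher in vector 24 h than 6 h (median 2.01) and 14 were higher in α1ACT 24 h than 6 h (median 1.59). The corresponding counts were 15 and 15 for 10 d against 3 d (medians 2.11 and 1.5). Of all tested genes 31.6% and 21.7% were higher at 24 h than at 6 h, and 33.2% and 21.8% at 10 d than at 3 d. In the same α1ACT comparisons the 34 ER genes had medians of -0.03 and -0.05. Between lines 13 of the 15 were lower in α1ACT at 24 h and 12 at 10 d, against 28.8% and 29.4% of all tested genes. Ddit3, which encodes CHOP, read a mean of 47.0 ± 1.17 CPM (SD, n = 3) in vector 6 h and 30.4 ± 0.649 in α1ACT 6 h, and 258 ± 33.0 and 188 ± 27.3 at 24 h. Chac1, a glutathione-degrading enzyme, read 111 ± 10.7 in vector 24 h and 78.2 ± 2.87 in α1ACT 24 h, from 4.42 ± 0.710 and 5.16 ± 0.542 at 6 h. The 16 heat shock genes of cytosol and mitochondria were split, with 3 higher and 8 lower in α1ACT at 24 h and 5 higher and 8 lower at 10 d. Among all tested genes 26.6% were higher and 28.8% lower at 24 h, and 29.5% and 29.4% at 10 d. The counts of higher heat shock genes lay near or below these shares. Hspa9, the mitochondrial Hsp70, was lower by 1.59-fold at 24 h and by 1.90-fold at 10 d, and Hspb1, a small heat shock protein, by 1.37-fold and 1.65-fold.

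Other genes of the same pathway, 82 of 88 listed in the count tables and all 82 tested, were lower in α1ACT in 34 and higher in 9 at 24 h, and lower in 39 and higher in 13 at 10 d. At 6 h 14 were higher and 18 lower, near the 20.5% and 21.2% of all tested genes. At 3 d 7 were higher and 22 lower, against 19.9% and 19.4%. Medians of the 82 genes were -0.09 at 24 h and -0.14 at 10 d. Among all tested genes 26.6% were higher and 28.8% lower at 24 h, and 29.5% and 29.4% at 10 d, and the counts of the further lists are to be read against these shares. Of 11 further genes of stress signalling, 9 were lower and none higher at 24 h, and 9 lower and 1 higher at 10 d. Creb3l1, a membrane-bound transcription factor of the ATF6 kind, was 5.25-fold and 5.72-fold lower in α1ACT at these times, at means of 13.4 CPM in vector 24 h and 2.47 in α1ACT 24 h. It stood at 0.434 to 0.754 CPM on average in the groups of 6 h and 3 d. Tmbim6, the ER membrane protein Bax inhibitor-1, was lower by 1.97-fold at 24 h and by 1.89-fold at 10 d.

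Of 19 further ERAD genes 9 were lower and 1 higher at 24 h, and 12 lower and 2 higher at 10 d. Vimp, a selenoprotein of the retrotranslocation complex, was lower by 1.62-fold and 1.64-fold, and Aup1, a partner of the ligase complex, by 1.39-fold and 1.51-fold. Of 20 further folding and redox genes 4 were higher and 8 lower at 24 h, and 4 higher and 6 lower at 10 d, the 10 d counts lying near or below the shares of all tested genes. Nucb1, a calcium-binding protein of the secretory pathway, was lower by 1.81-fold and 1.86-fold, and Txndc11, a thioredoxin-domain protein, by 1.73-fold and 1.83-fold. Among 14 genes of N-glycan transfer and trimming 1 was higher and 5 lower at 24 h, and 1 higher and 6 lower at 10 d. The higher one was Tusc3, an oligosaccharyltransferase subunit, by 1.49-fold at 24 h and 1.63-fold at 10 d, whereas Man1b1, a mannosidase that trims ERAD substrates, was lower by 1.24-fold and 1.39-fold. The 18 further targeting genes were split, with 3 higher and 3 lower at 24 h and 5 higher and 6 lower at 10 d, below the shares of all tested genes at 24 h and near them at 10 d. Srp14, a subunit of the signal recognition particle, was lower at both times (log2 differences -0.27 and -0.22), and Tram1, a translocating-chain protein, was higher at 10 d (0.15).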

How the data were processed

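Total RNA of 24 PC12 libraries was prepared with a stranded kit after ribosomal RNA removal and sequenced in pairs of 100 bases over 3 lanes, per the labels' protocols. The authors deposited 1 table of whole-number read counts per gene for each library. The submitters' processing notes name FastQC 0.11.2, TopHat2 2.0.10, Picard 1.117, HTSeq 0.5.4p5, edgeR and genome build rn5. For annotation, strand setting and the role of each tool the sources used here hold no statement, so overlapping and antisense genes cannot be told apart. The 5 summary lines were left out. The line for no gene held 47.77% to 52.85% of the gene, ambiguous and no-gene counts together.

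Groups come from the sample labels. Genes with enough counts (edgeR filterByExpr, minimum count 10, minimum total 15) numbered 9994 of 17055. Counts of all 24 libraries were fitted by group in edgeR 4.0.16 (R 4.3.3) with TMM scaling and the quasi-likelihood F test with 16 residual degrees of freedom. P-values were adjusted over all tested genes by Benjamini-Hochberg, and an adjusted p under 0.05 is a call; all comparisons of this kind numbered 19. The text gives ± as SE of the log2 difference unless SD is stated. A further list of cell type markers is not reported here. The code was tested on simulated counts. Alternatives were other scaling (RLE, none), no filter, DESeq2 1.42.0, only the groups compared, the replicate number as a block, and leaving out libraries, which makes 15 for a comparison of a pair of groups.

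The members and lists were chosen with earlier results of these data known. Values in every library are given for the 3 genes of each role (2 for the sensors) with the smallest p over the 8 groups, and for genes that moved against their role at 24 h or 10 d. In each further list the 2 genes of smallest joint p are named. Hsp90b1 values were added after they were seen. Replicate libraries of a group differed by more than sampling noise. Replicate 2 held the highest value for 24 of the 34 genes in vector 6 h, 29 in vector 24 h and 26 in vector 3 d. In α1ACT it did so for 19 at 6 h, 15 at 24 h, 23 at 3 d and 18 at 10 d. Vector 10 d was the exception, with 11 genes highest in replicate 2 and 19 in replicate 1. The same count over all tested genes was not made, and the cause was not tested. Counts on genes had a median of 11663500.5 per library, and 3 counts in a library are the limit below which no fold is given.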

Additional observations from a re-analysis of the deposited data

Results flagged for a closer look

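In 25 of the 34 genes the difference between the labelled lines was not the same at the 4 labelled times, by edgeR's joint test of line by time with adjusted p-values over all tested genes. The smallest adjusted p-values were those of Sel1l (4.74e-15), Hyou1 (1.23e-14), Hspa5 (5.85e-13) and Herpud1 (8.29e-13). In Hyou1 and Hspa5 the α1ACT libraries were the higher ones at 6 h and 3 d and the lower ones at 24 h and 10 d, in all 3 libraries of each group. In Sel1l and Herpud1 the lines differed at 24 h and 10 d and were not called at 6 h and 3 d. By the file names the same libraries gave no call of line by time among the 34 genes in edgeR, with 8 at an unadjusted p under 0.05 and 3 by DESeq2. Among all tested genes these counts were 1219 of 9994 and 127 of 13187. Whether the labels or the file names are right was not tested with these values.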

How the results depend on the processing

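No value of the 34 genes reversed its direction as a call under any alternative, in 16 comparisons. The higher genes between vector 10 d and 24 h (8 in the main analysis) numbered 2 with only the groups compared, and 1 to 15 when libraries were left out. Between α1ACT 10 d and 24 h the count (0) was 1 with RLE factors, 1 with library sizes, 1 with DESeq2 and 0 to 1 when libraries were left out. Between α1ACT 3 d and 6 h (0) it was 0 to 1. By the file names Q11 against P (3) gave 0 to 6 when libraries were left out, and line by time (0) gave 2 with no filter, 3 with DESeq2 and 0 to 8. Among all tested genes this line by time test gave 112 with no filter, 127 with DESeq2 and 0 to 371 when libraries were left out. The line difference at 3 d (24) gave 13 to 22, and α1ACT 24 h against 6 h (16) gave 10 to 18. The causes were not tested, beyond the fewer libraries that leaving some out brings. Replicate numbers did not meet the criterion for pairing, which asks for a correlation over 0.1 in every pair: deviations of same-numbered libraries correlated at -0.0791 to 0.342 (median 0.0917) over 84 pairs, 32 of them over 0.1. Libraries of other numbers correlated at -0.285 to 0.18 (median -0.0613), with 11 of 168 over 0.1, and 18 of 24 libraries correlated best with their own number, a hint from the data of a shared component. With the replicate block the counts were 23 at 24 h and 28 at 10 d between lines, 1 for α1ACT 10 d against 24 h, 5 for Q11 against P and 2 for line by time under the file names. The 3 libraries per group limit the precision of small differences.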
